A study of Mus musculus with 24 samples.

Results

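The first 3 days of air breathing in wild-type (WT) mouse lung are described here by the 6 arrays of 24 that hold WT lungs at postnatal day (PND) 0 and PND 3, with 3 arrays at each age. They were chosen by their sample titles alone, and each change is the mean log2 level at PND 3 less the mean at PND 0. Of 35,556 rows in the deposited table, the 21,789 that name exactly 1 gene were tested, and these stand for 19,938 genes. The study followed WT and *Scnn1b*-Tg mice, a cystic-fibrosis-like model in which a club cell promoter (that of *Scgb1a1*) drives the beta subunit of the epithelial sodium channel in the airways. Both groups used here were male WT mice on the C57Bl/6N Tac background, bred free of specific pathogens, and no treatment was given to either. The left lobe was taken within 24 h of birth for PND 0 and 3 days later for PND 3, and total RNA of pooled mice was hybridised to an Affymetrix Mouse Gene 1.0 ST array. The methods give 3 mice per pool, whereas the labels list 2 animal numbers per array, so n counts pools. The labels name no hybridisation batch, and any batch that ran with age cannot be told apart from age. The *Scnn1b*-Tg arrays of the same ages serve below only to show whether a change differed between the genotypes.

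At birth the lung clears its liquid, fills with air and takes over gas exchange, under a surge of glucocorticoid and catecholamine that accompanies delivery. In the mouse the newborn lung is at the saccular stage, and the walls between the sacs later divide into alveoli. Surfactant from alveolar type II cells keeps the sacs open, type I cells and capillaries form the exchange surface, and fibroblasts lay down the elastic fibres and collagen of the wall. Cells of the lung divide rapidly again after birth, and macrophages and lymphocytes populate the airspace and wall.

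Most lung markers were high in every array. Surfactant protein C (*Sftpc*) lay between 13.39 and 14.01 log2, the club cell protein *Scgb1a1* between 12.39 and 13.66, and the type I cell receptor *Ager* between 10.71 and 11.32. The ciliated cell factor *Foxj1* lay between 5.26 and 5.87 log2. Of the 8 epithelial markers 1 fell, the lung transcription factor *Nkx2-1*, to between 5.73 and 5.91 log2, and none of the 5 markers of endothelium and mesenchyme was called. Summed on the linear scale, the epithelial markers came to 14.5, 14.8 and 14.9 log2 at PND 0 and to 15.1 log2 in each PND 3 array. Markers of brown fat (*Ucp1*, *Cidea*, *Adipoq*) and thymus (*Rag1*, *Ptcra*, *Dntt*) stayed below 5 log2 in all 6 arrays.

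Some arrays stood apart from the others of their age. WT PND 0 replicate 1 carried liver transcripts: albumin (*Alb*) was at 9.65, 4.304 and 4.08 log2 in the 3 PND 0 arrays and at 7.72, 5.29 and 7.58 in the 3 PND 3 arrays. That array was therefore high at birth, and PND 3 replicates 1 and 3 held *Alb* above replicate 2. The summed liver markers (*Alb*, *Afp*, *Apoa1*) were 9.94, 5.89 and 5.89 log2 at PND 0 and 8.23, 6.61 and 8.12 at PND 3. WT PND 3 replicate 3 carried squamous keratins and muscle transcripts. Keratin 13 (*Krt13*), of oesophageal epithelium, read 3.85, 3.51 and 3.66 log2 at PND 0 and 3.64, 3.72 and 7.51 at PND 3, so that replicate 3 alone was high. In the same array *Acta1*, skeletal muscle actin, was at 8.05 log2 against 5.62 to 6.17 in the other 5. WT PND 3 replicate 2 had the lowest levels of the cell division genes and the highest of several cytokines, as given with those genes. Array-wide correlations were 0.978 to 0.996 within an age and 0.926 to 0.953 between the ages. Counts of list members called were recomputed without each of these 3 arrays. Moves of over 1.5 times stand beside the lists where they reached 3 genes or more, and elsewhere such moves were of at most 2 genes, apart from the 1 receptor gene of 1178 called higher, which became 4 without WT PND 3 replicate 2. In whole lobes, fewer cells of a type and less RNA per cell cannot be told apart.

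**Figure D1:**
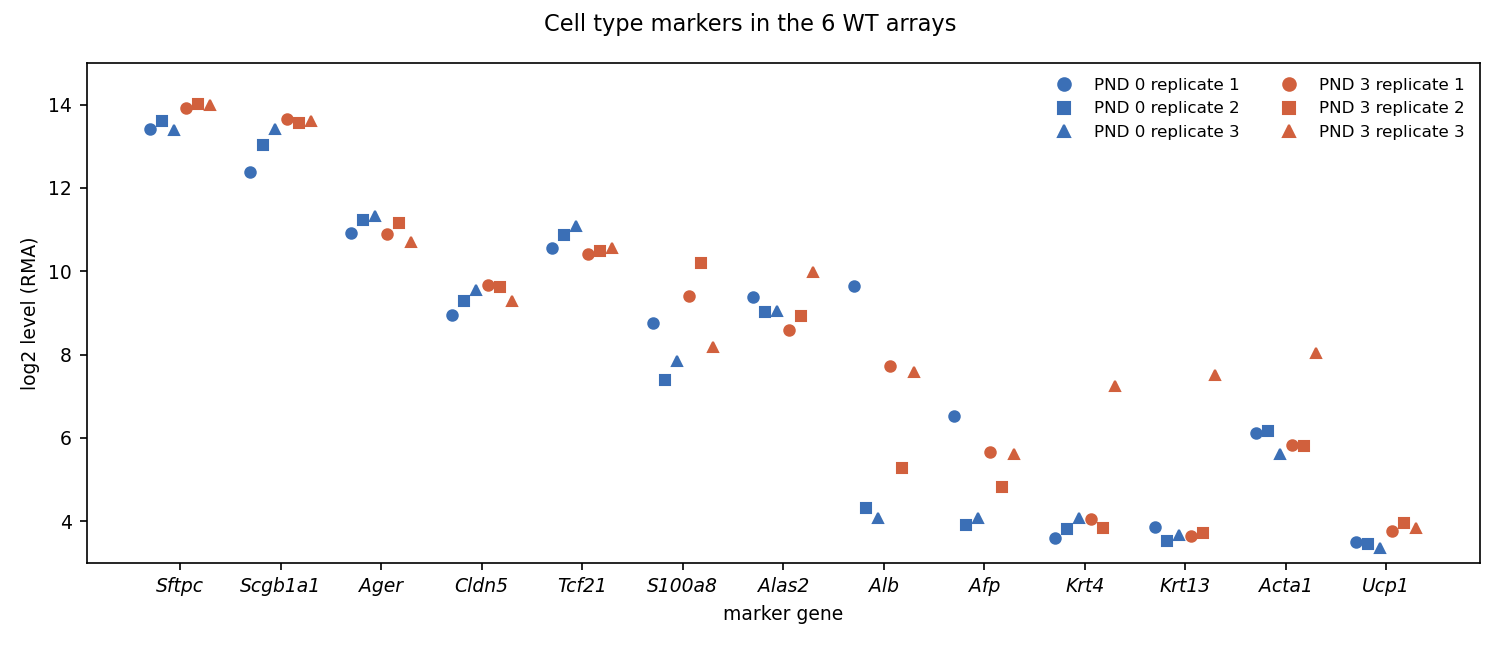
Log2 levels of 13 cell type markers (vertical axis) in the 3 PND 0 and 3 PND 3 arrays of WT lung (points by array). *Sftpc* lies above 13 in all 6 arrays, *Alb* reaches 9.65 in PND 0 replicate 1, and *Krt13* reaches 7.51 in PND 3 replicate 3.

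The interval moved more genes down than up. A row was called where limma's adjusted p (Benjamini-Hochberg) was 0.05 or less and the change reached 2-fold. By this rule 2124 of 21,789 rows (9.75%) were called, 427 higher (1.96%) and 1697 lower (7.79%) at PND 3. Taking the brightest probe set of each gene left 375 genes of 19,938 that rose (1.88%) and 1400 that fell (7.02%), and all counts of genes below use this set. The median change over all genes was 0.07 log2. The split depends on scaling: a further quantile normalisation over the 24 arrays gave 792 rows higher and 963 lower, and centring each array on its olfactory and vomeronasal receptor rows, which stood in for background, gave 195 and 2837. Those receptor rows had medians of 3.70 to 3.73 log2 at PND 0 and 3.94 to 4.0005 at PND 3, while the median of all tested rows went from 5.28 to 5.35 down to 5.12 to 5.17. Over all genes, 6547 (32.8%) had all 3 PND 3 arrays above all 3 PND 0 arrays and 5245 (26.3%) had all 3 below. Among the 11,198 genes with a mean above 5 log2 at either age, 374 rose (3.34%), 1395 fell (12.5%) and the median change was −0.21. Gene lists are therefore described by their counts and medians beside these figures, with no test of a list.

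**Figure D2:**
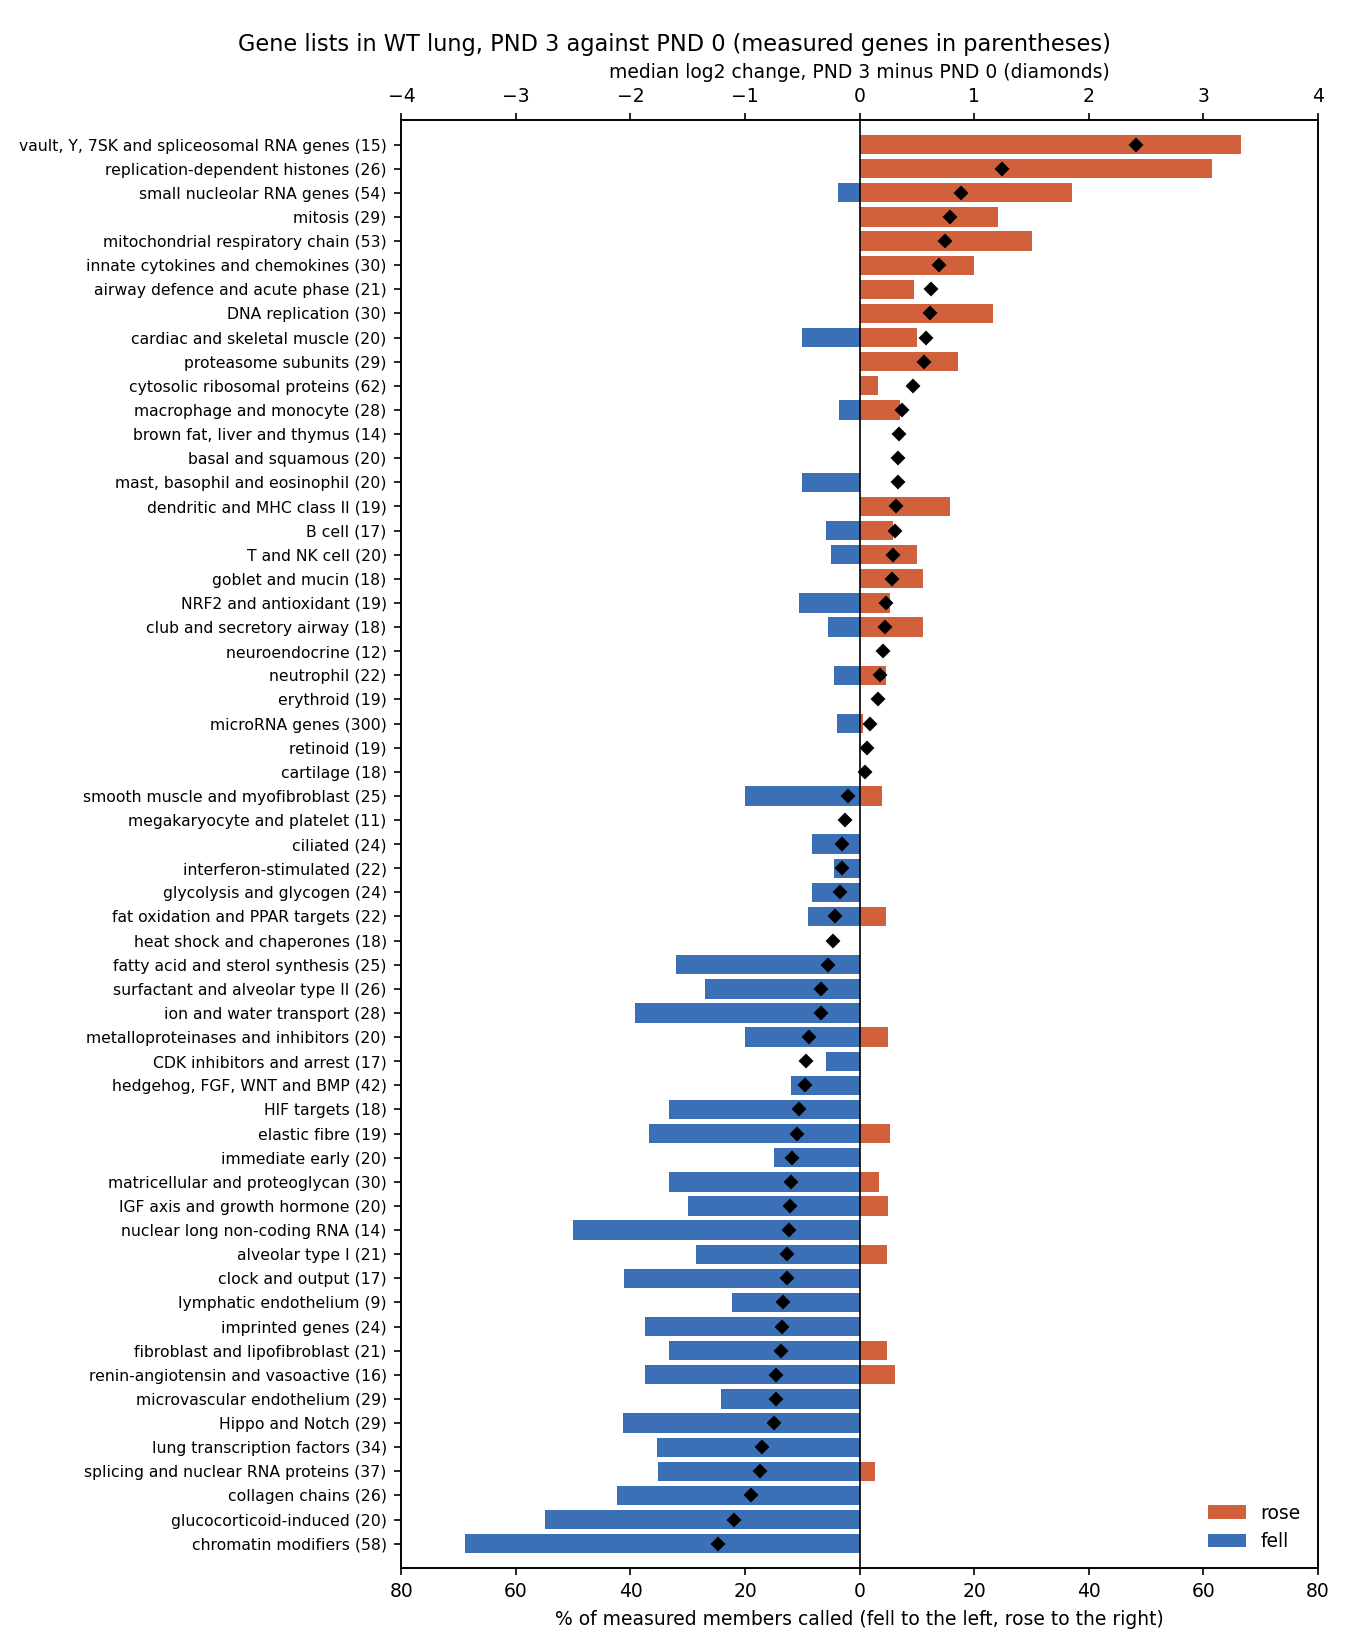
For each gene list except the receptors, bars give the percentage of measured members that rose or fell from WT PND 0 to PND 3 (3 arrays each). Diamonds give the median log2 change of the list. Over all genes 1.88% rose and 7.02% fell, and the lists range from vault and spliceosomal RNA genes, median 2.41, to chromatin modifiers, median −1.24.

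Genes of cell division rose, and 12 of the 15 largest rises of protein-coding genes were histone or DNA replication genes. Replication-dependent histones, which are made in S phase to package new DNA, had 16 of 26 measured members higher and none lower, with a median change of 1.24 log2 (0.90 in *Scnn1b*-Tg). *H4c6*, a core histone H4 gene, was at 7.39, 7.19 and 7.10 log2 at PND 0 and at 10.07, 9.12 and 10.63 at PND 3. Every PND 3 array was higher than every PND 0 array, and replicate 2 was the lowest of the PND 3 arrays. *H4c6* rose by 2.71 log2 (SE 0.36, limma adjusted p = 3.39e-06). The linker histone *H1f1* went from 7.0005, 6.99 and 7.36 to 9.94, 8.84 and 10.61, a rise of 2.68 log2 (SE 0.32), again with no overlap and with replicate 2 lowest. The H2B genes *H2bc14*, *H2bc3* and *H2bc18* rose by 2.64, 2.59 and 1.97 log2, the H4 genes *H4f16* and *H4c14* by 2.08 and 1.94, the H2A gene *H2ac4* by 2.03, and the linker histone *H1f5*, the brightest of those named, by 2.00 log2 to between 10.16 and 11.45. Core histone genes lie in clusters of near-identical copies, so a probe set may read more than its named copy.

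Of the DNA replication list, 7 of 30 measured genes rose, none fell and the median was 0.62 log2. *Tyms*, thymidylate synthase of the dTMP supply, was at 5.52, 5.33 and 5.31 log2 at PND 0 and at 7.56, 6.59 and 7.77 at PND 3, a rise of 1.92 log2 (SE 0.30, limma adjusted p = 2.63e-05). Its ages did not overlap, although PND 3 replicate 2 lay below the other 2 of its age. *Rfc4*, of the clamp loader that places PCNA on DNA, rose by 1.57 log2 (SE 0.17), and *Mcm5*, of the replicative helicase, by 1.27 (SE 0.22). *Gins1* and *Gins2*, of the complex that joins the helicase, rose by 1.29 and 1.10 log2. Outside the list, *Prim1*, the primase that starts each new strand, went from 5.35, 5.81 and 5.80 to 8.11, 6.98 and 8.06 log2, and *Pclaf*, a PCNA-binding protein, rose by 1.91 log2.

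Mitosis genes followed with 7 of 29 measured members higher, none lower and a median of 0.79 log2. *Cdk1*, the kinase that drives entry into mitosis, was at 6.77, 6.15 and 5.96 log2 at PND 0 and at 7.70, 6.86 and 7.73 at PND 3, with no overlap and a rise of 1.14 log2 (SE 0.21, limma adjusted p = 1.40e-04). Its cyclin partner *Ccnb2* went from 6.51, 5.99 and 5.92 to 7.90, 6.49 and 8.09 log2, where replicate 2 was again the lowest PND 3 array and reached into the PND 0 range. *Nuf2*, of the kinetochore that grips spindle fibres, rose by 1.55 log2, cyclin A2 (*Ccna2*) by 1.25, the kinase *Melk* by 1.11 and *Birc5*, of the chromosomal passenger complex, by 1.22. These counts moved with 1 array: without WT PND 3 replicate 2, 18 mitosis genes and 13 DNA replication genes were called higher, and without replicate 3 the mitosis count was 4. Histones gave 16, 17 and 14 higher without WT PND 0 replicate 1, WT PND 3 replicate 2 and WT PND 3 replicate 3. Of the 17 CDK inhibitors and arrest genes 1 was called, *Trp53inp1*, a p53-responsive gene, which went from 9.85, 8.55 and 8.40 to 7.73, 7.61 and 7.70 log2. Without WT PND 0 replicate 1, its highest array, none of this list was called, and without WT PND 3 replicate 2, 5 were lower and 1 was higher. The list medians of histones, replication and mitosis stayed above 0 under all 3 other scalings, at their lowest 0.99, 0.37 and 0.54 log2 on the receptor-centred scale.

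**Figure D3:**
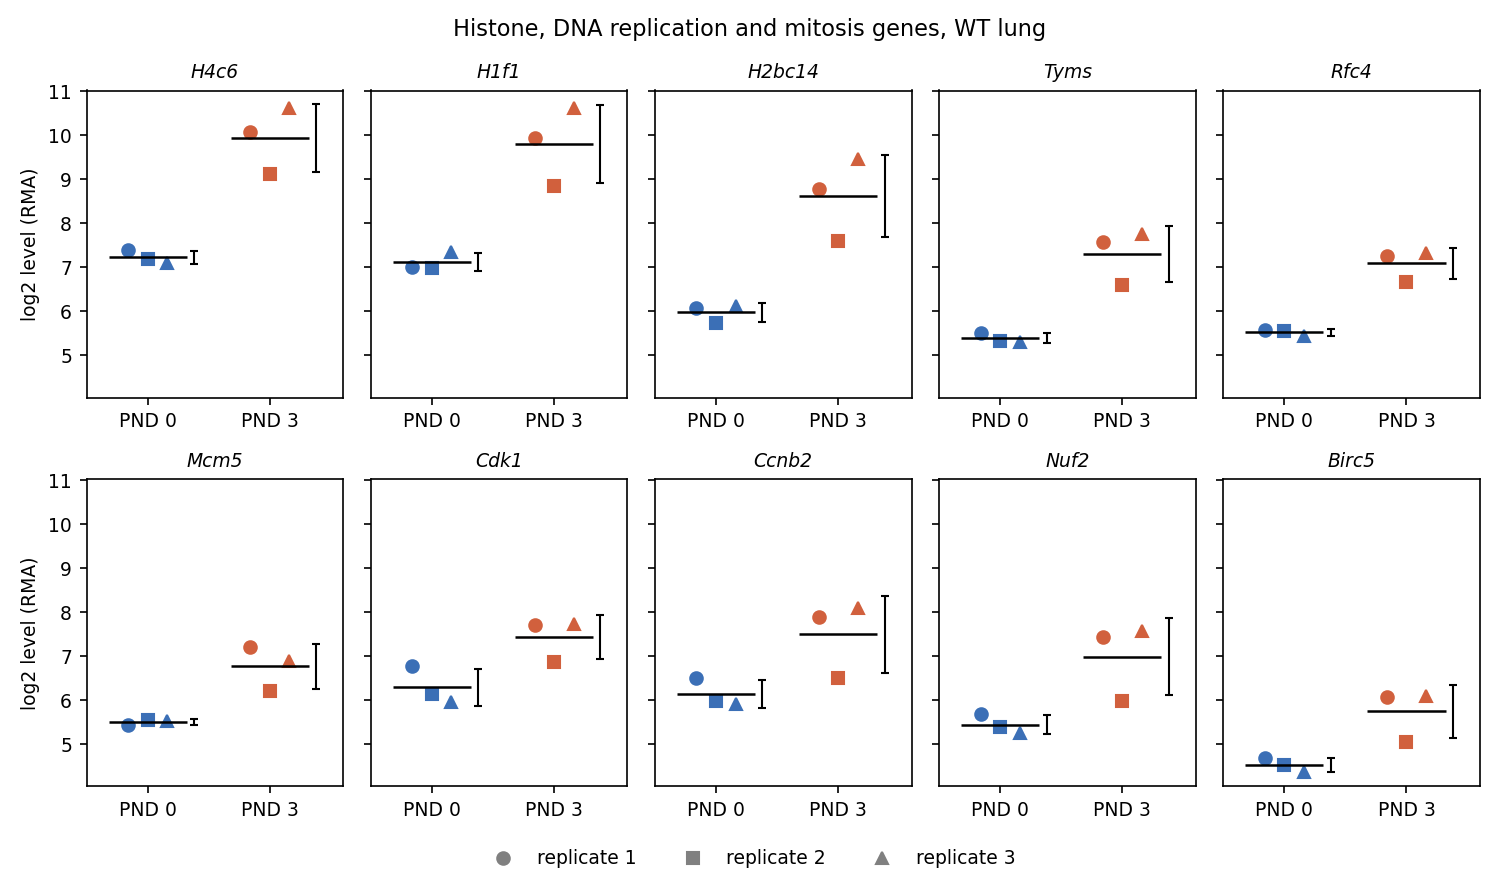
Log2 levels of 10 genes of histones, DNA replication and mitosis (1 panel per gene) in the 3 PND 0 and 3 PND 3 arrays of WT lung (points), with group means (lines) and SD (bars). All 10 rose, and PND 3 replicate 2 lies lowest of its age in each panel, as *H4c6* at 9.12 against 10.07 and 10.63.

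The promoters of these 3 groups are shown because the groups rose together and each is known for its own short element. Promoter windows came from RefSeq (GRCm38.p6), were 300 bases long and covered 15,563 of the genes in 19,116 windows, and both strands were searched. The TATA box letters TATAAA occurred in 15 of 22 histone genes with a window (68.2%), against 13.6% of all genes. The E2F letters TTTGGCGC or TTTCCCGC occurred in 9 of 26 DNA replication genes (34.6%) and in 0 of 25 mitosis genes, against 2.55% of all genes. The cell cycle homology region, TTTGAA or TTCGAA, occurred in 20 of 25 mitosis genes (80%) and 11 of 22 histone genes, against 19.04% of all genes. CCAAT occurred in 19 of 22, 17 of 26 and 19 of 25 genes of the 3 lists and in 41.7% of all genes. No motif holds another within it. A match is a string of letters and was not tested for binding. For each list the gene with the largest rise that held its motif (for histones, near the usual TATA position just before the start) is printed 5′ to 3′ from 250 bases before to 20 bases after the gene's start, with the matches in capitals. *H1f1* (chr13:23763418-23763687, plus strand) has TATAAA from position −33 (counted from the gene's start), *Mcm5* (chr8:75109259-75109528, plus strand) has the E2F letters on the reverse strand from position −149, and *Ccnb2* (chr9:70421535-70421804, minus strand) has TTTGAA from position −167 and again from base 5 of the gene.
H1f1: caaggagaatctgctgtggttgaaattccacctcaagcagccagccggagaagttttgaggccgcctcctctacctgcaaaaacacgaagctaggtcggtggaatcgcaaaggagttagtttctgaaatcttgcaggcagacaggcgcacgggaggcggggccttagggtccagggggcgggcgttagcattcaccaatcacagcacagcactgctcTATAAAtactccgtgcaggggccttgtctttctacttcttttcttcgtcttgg
Mcm5: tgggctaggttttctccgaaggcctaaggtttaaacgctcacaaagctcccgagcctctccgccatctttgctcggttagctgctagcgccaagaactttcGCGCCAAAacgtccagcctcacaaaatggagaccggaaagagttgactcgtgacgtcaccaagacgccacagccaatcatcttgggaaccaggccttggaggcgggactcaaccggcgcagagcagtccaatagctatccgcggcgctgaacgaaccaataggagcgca
Ccnb2: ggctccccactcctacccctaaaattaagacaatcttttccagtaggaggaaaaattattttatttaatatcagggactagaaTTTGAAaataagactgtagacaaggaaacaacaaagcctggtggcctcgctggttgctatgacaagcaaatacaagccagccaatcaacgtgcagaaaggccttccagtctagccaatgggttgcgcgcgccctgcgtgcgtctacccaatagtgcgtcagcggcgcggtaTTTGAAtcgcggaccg

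Genes induced by glucocorticoid fell. Glucocorticoid binds a nuclear receptor that switches on genes such as *Fkbp5*, *Per1* and *Zbtb16*, and of 20 measured members 11 fell, none rose, and the median change was −1.09 log2. *Zbtb16*, a zinc-finger repressor, was at 8.83, 7.60 and 7.16 log2 at PND 0 and at 4.67, 5.58 and 4.27 at PND 3. The ages did not overlap, PND 0 replicate 1 was the highest array, and *Zbtb16* fell by 3.02 log2 (SE 0.54, limma adjusted p = 9.89e-05). *Pdk4*, the kinase that turns pyruvate away from oxidation, went from 8.47, 6.64 and 7.21 to 5.05, 5.50 and 4.58 log2, with PND 0 replicate 1 again the highest. *Klf9*, a hormone-responsive transcription factor, went from 9.61, 8.42 and 8.56 to 6.74, 7.46 and 5.70 log2, and the clock gene *Per1* from 8.63, 7.86 and 7.91 to 6.19, 6.80 and 5.11. *Tfcp2l1*, a transcription factor of epithelia, fell by 2.29 log2, *Hif3a*, an inhibitory hypoxia factor, fell by 1.53 and the phagocytic receptor *Mertk* by 1.43. PND 0 replicate 1 is also the array with *Alb* at 9.65 log2, and the part of that array's make-up in these falls was not tested. Without it 9 of the 20 members were called lower. In *Scnn1b*-Tg lungs the median of the list was −0.37 log2 over the same interval. *Pdk4* changed by −0.36 log2 there, 2.04 log2 (SE 0.51) above the WT change, which did not pass in the test of the difference (limma adjusted p = 0.866).

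Stress and hypoxia genes moved in part. Of 20 immediate early genes, which answer stimuli within minutes, 3 fell (15%), near the 12.5% of all genes above 5 log2. *Jun* fell by 1.28, *Fos* by 1.17 and *Klf4* by 1.15 log2. After a further quantile normalisation, and after centring on array medians, 1 of the list was called lower. *Fos* was at 6.78, 5.71 and 6.54 log2 at PND 0 and at 5.31, 5.27 and 4.94 at PND 3, with no overlap. Of 18 targets of the hypoxia-inducible factors 6 fell, among them the histone demethylase *Kdm3a* by 1.38, the vascular growth factor *Vegfa* by 1.23 and the collagen hydroxylase *P4ha1* by 1.11 log2. After a further quantile normalisation 2 HIF targets were lower and 1 was higher. The lower count was 3 after centring on array medians and 7 on the receptor-centred scale. Without WT PND 0 replicate 1, 2 HIF targets and 1 immediate early gene were lower and 1 HIF target was higher, and without WT PND 3 replicate 3 the lower counts were 3 and 2. No member of the 18 heat shock and chaperone genes was called. Of 19 antioxidant genes 1 rose (5.26%), the glutathione peroxidase *Gpx2*, by 1.06 log2. That call was lost without WT PND 0 replicate 1 and without WT PND 3 replicate 2. In the same list 2 fell (10.5%), *Gpx3* by 1.23 and *Gclc*, of glutathione synthesis, by 1.45 log2. Over all genes above 5 log2, 3.34% rose and 12.5% fell.

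Clock genes fell without a counterpart that rose. The clock is a loop in which *Clock* and *Arntl* switch on the *Per* and *Cry* genes, whose products then repress them, so its 2 arms usually peak at different hours. Of 17 clock and output genes 7 fell and none rose, with a median of −0.63 log2. *Arntl* was at 7.69, 7.53 and 7.504 log2 at PND 0 and at 6.31, 6.55 and 6.33 at PND 3, and *Clock* fell by 1.45 log2 (SE 0.20, limma adjusted p = 4.45e-06). In the opposing arm *Per2* went from 6.93, 6.32 and 6.54 to 4.92, 5.38 and 4.92 log2, *Cry2* fell by 1.84 and *Per3* by 1.14. None of *Arntl*, *Per2* or *Clock* overlapped between the ages. The nuclear receptor *Rora*, which acts on *Arntl*, fell by 1.48 log2. The methods have tissue taken at a fixed hour of the day, whereas PND 0 pups were any time within 24 h of birth.

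Imprinted genes of fetal growth were lower at PND 3. Imprinted genes are read from 1 parental copy, and many of them set fetal size. Of 24 measured, 9 fell and none rose, with a median of −0.68 log2. *Plagl1*, a zinc-finger regulator of this network, was at 9.17, 8.92 and 8.97 log2 at PND 0 and at 6.93, 6.995 and 7.02 at PND 3, a change of −2.04 log2 (SE 0.14, limma adjusted p = 2.41e-09). The long non-coding RNA *Meg3* had the largest fall of all named genes, from 9.61, 9.04 and 8.52 to 4.28, 4.49 and 4.53 log2. In both genes all PND 0 arrays lay above all PND 3 arrays. *Peg3* and *Zim1*, neighbouring zinc-finger genes, fell by 1.90 and 2.02 log2, and *Grb10*, an adaptor that damps insulin signalling, by 1.10. In the insulin-like growth factor axis 6 of 20 genes fell and 1 rose, the binding protein *Igfbp2*, by 1.40 log2. The clearance receptor *Igf2r* went from 9.38, 9.08 and 9.14 to 7.16, 7.26 and 7.64 log2, the growth receptor *Igf1r* fell by 1.84, and the receptor adaptors *Irs1* and *Irs2* by 1.63 and 1.51 log2. The insulin receptor *Insr* was among the 15 largest falls of protein-coding genes, from 8.54, 8.59 and 8.83 to 6.27, 6.29 and 5.91 log2.

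**Figure D4:**
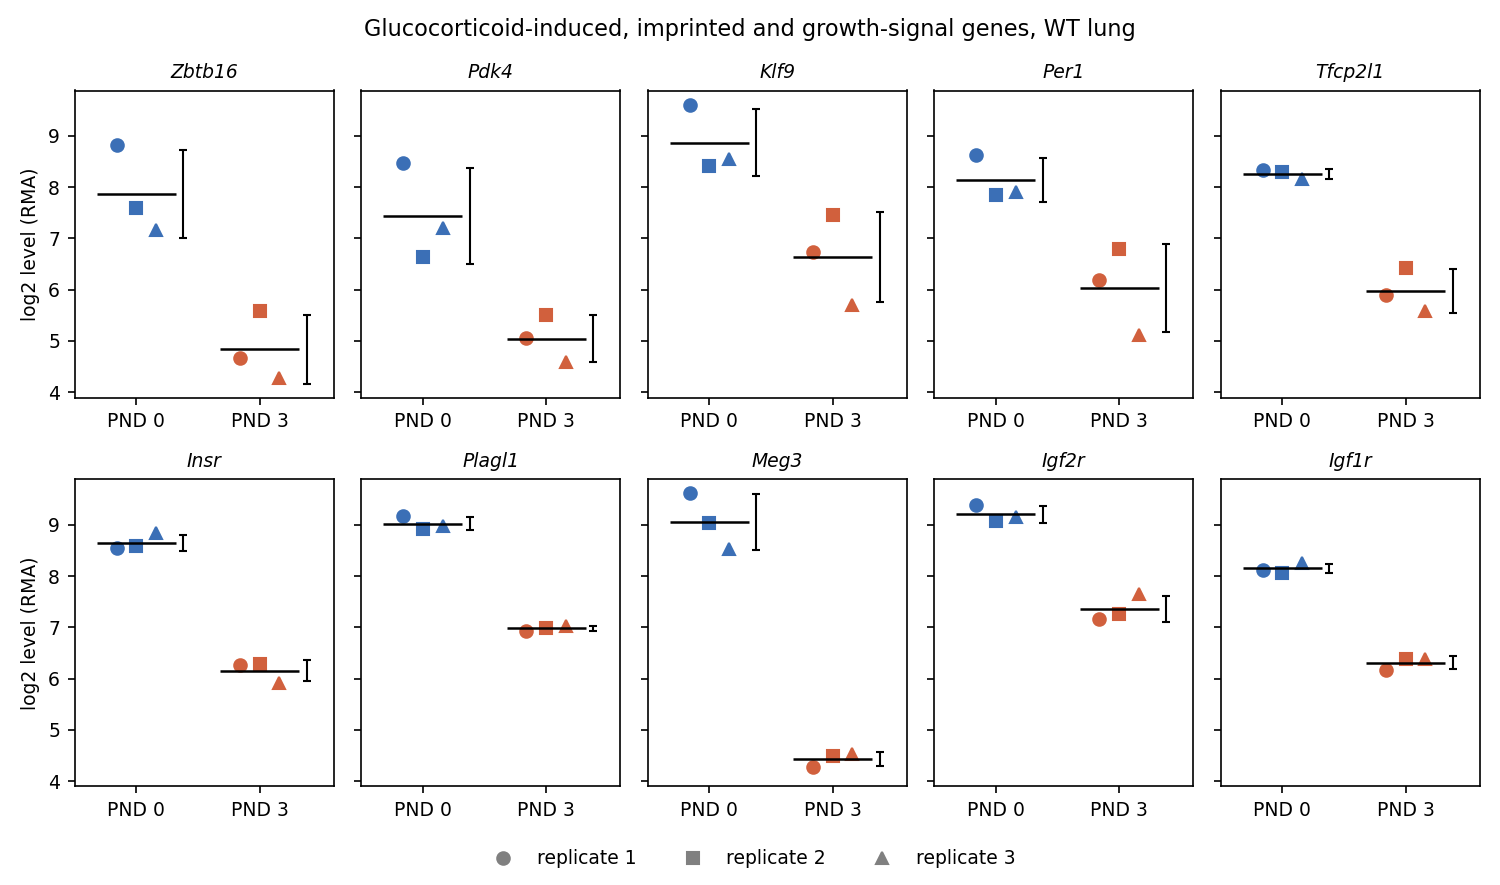
Log2 levels of 5 glucocorticoid-induced genes, the insulin receptor *Insr* and 4 genes of imprinting and the IGF axis (1 panel per gene) in the 3 PND 0 and 3 PND 3 arrays of WT lung (points), with group means (lines) and SD (bars). All 10 fell, and the PND 0 arrays spread most where replicate 1 is high, as in *Zbtb16* at 8.83 log2.

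Genes of mitochondrial energy supply rose as a group in modest steps. The respiratory chain passes electrons to oxygen and drives ATP synthase, and 16 of its 53 measured subunits rose, none fell and the median was 0.75 log2. The complex I subunit *Ndufb9* was at 8.12, 8.40 and 8.17 log2 at PND 0 and at 9.45, 9.50 and 9.51 at PND 3, a rise of 1.25 log2 (SE 0.12, limma adjusted p = 6.75e-08). *Ndufb7*, of the same complex, rose by 1.44, *Atp5o*, of ATP synthase, by 1.24 and *Uqcc2*, which helps to assemble complex III, by 1.89 log2. *Cox6a1*, of cytochrome oxidase, went from 8.99, 8.69 and 8.84 to 9.998, 9.96 and 10.02 log2. For *Ndufb9* and *Cox6a1* all PND 3 arrays were above all PND 0 arrays. Glycolysis and glycogen genes had 2 of 24 lower (8.33%), hexokinase *Hk2* and the glucose carrier *Slc2a1*, and none higher. The lower count was 1 without WT PND 0 replicate 1, 4 without WT PND 3 replicate 2 and 0 without WT PND 3 replicate 3. Fat oxidation genes had 2 of 22 lower (9.09%), *Pdk4* and the fatty acid carrier *Cd36*, and 1 higher (4.55%), the carrier *Fabp3* with 1.09 log2. The *Fabp3* call was lost without WT PND 0 replicate 1 and without WT PND 3 replicate 2. Over all genes above 5 log2, 12.5% fell and 3.34% rose, so neither list stood out by its counts.

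The core letters of nuclear respiratory factor 1, GCGCATGC, occurred in 6 of 42 respiratory chain genes with a window (14.3%), against 4.29% of all genes, and also in 4 of 25 mitosis genes (16%), 3 of 26 DNA replication genes (11.5%) and 4 of 40 chromatin modifiers (10%). The window of *Cox6a1* (GRCm38.p6 from RefSeq, chr5:115348939-115349208, minus strand), the gene of the list with the largest rise among those that hold them, is printed from 250 bases before to 20 after its start, and its capitals mark 2 overlapping copies, of which the first begins at position −162.
Cox6a1: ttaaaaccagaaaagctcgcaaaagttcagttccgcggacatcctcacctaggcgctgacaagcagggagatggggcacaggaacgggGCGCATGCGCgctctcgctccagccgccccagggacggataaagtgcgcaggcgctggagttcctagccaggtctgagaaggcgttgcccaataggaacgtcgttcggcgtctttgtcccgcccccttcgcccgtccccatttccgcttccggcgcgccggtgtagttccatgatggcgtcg

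Protein synthesis and breakdown genes shifted upward with few calls. Of 62 ribosomal protein genes 2 rose (3.23%, *Rpl41* and *Rpl36*), near the 3.34% of all genes above 5 log2, and none fell. A positive change was seen in 58, and the median was 0.47 log2. The olfactory and vomeronasal receptors, which stood in for background, were positive in 1127 of 1178 genes, with a median of 0.25 log2. *Rpl41* rose by 1.03 log2 (SE 0.14), and *Rps12*, at 0.88 log2 in its brightest probe set, stayed under the 2-fold limit there. Of the 14 probe sets of *Rps12*, 1 was called higher, as was 1 each of the 4 of *Rpl27*, the 7 of *Rpl19* and the 3 of *Rps10*. Of 29 proteasome subunits 5 rose, none fell and the median was 0.56 log2. The core particle subunit *Psma7* was at 7.21, 7.48 and 7.42 log2 at PND 0 and at 8.68, 8.50 and 8.65 at PND 3, with no overlap, and *Psmb1*, *Psmb4*, *Psmb3* and *Psmb6* rose by 1.07, 1.12, 1.12 and 1.05 log2. On the receptor-centred scale the 2 medians were 0.22 and 0.31 log2, still above 0.

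Of all lists, chromatin modifiers had the largest share of members that fell. Chromatin modifiers write, read or move the marks on histones, and 40 of 58 fell with none higher and a median of −1.24 log2. *Brwd1*, a bromodomain reader, was at 6.93, 7.12 and 7.04 log2 at PND 0 and at 5.42, 5.53 and 5.62 at PND 3, and the histone methyltransferase *Kmt2d* at 6.61, 6.79 and 6.82 and 4.76, 4.85 and 4.93. Neither gene overlapped between the ages. The remodelling subunit *Bptf* fell by 1.65 log2, the coactivator *Ncoa1* by 1.48 and the demethylase *Kdm6b* by 1.35. Of 37 splicing and nuclear RNA proteins 13 fell and 1 rose, *Snrpd2*, of the spliceosome core, by 1.498 log2. The speckle scaffolds *Srrm2* and *Son* fell by 2.05 and 1.86 log2 and the splicing kinase *Clk1* by 2.21 log2. Of 14 nuclear long non-coding RNAs 7 fell, *Malat1* of the speckles by 3.14, *Airn*, the antisense partner of *Igf2r*, by 1.78, *Tug1* by 1.21 and *Norad* by 1.13 log2.

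Genes of long genomic span fell and genes of short span rose. For the 10,937 protein-coding genes above 5 log2 at either age with a span in the reference table, the median change was 0.42 log2 for the 558 genes of up to 3 kb, 0.15 for the 2001 of 3 to 10 kb, −0.13 for the 3640 of 10 to 30 kb, −0.45 for the 3247 of 30 to 100 kb and −0.69 for the 1491 of over 100 kb. Of the shortest class 13.6% rose and 0.179% fell, and of the longest 0.537% rose and 30.2% fell. The same 5 medians were 0.47, 0.20, −0.08, −0.44 and −0.69 in *Scnn1b*-Tg lungs, and −0.11, −0.11, −0.07, 0.01 and 0.12 in WT lungs from PND 3 to PND 10. A further quantile normalisation gave 0.58, 0.34, 0.09, −0.22 and −0.44, so the order stood while the sign of the middle class turned. As 1 value per array, the median level of the shortest class less the median level of the longest was −0.65, −0.51 and −0.60 log2 at PND 0 and 0.65, 0.65 and 0.60 at PND 3. The means were −0.59 ± 0.07 and 0.63 ± 0.03 (SD, n = 3), with an exact two-sided permutation p of 0.1, the smallest that 3 against 3 arrays allow. Measured against genes of like span, the lists differed in how much of their change was left. Each list was cut here to its members among these 10,937 genes, so the medians before can differ from those of the whole lists. The median change less that of the gene's span class was −0.79 log2 for chromatin modifiers (−1.24 before), −1.08 for glucocorticoid-induced genes (−1.15), 0.72 for the respiratory chain (0.75) and 1.02 for mitosis genes (0.80). It was −0.37 for the 20 ion transport genes kept (−1.06 before, against −0.34 for all 28 of that list). For collagen chains it was −0.49 (−1.09 before), for fatty acid and sterol synthesis −0.13 (−0.28) and for ribosomal proteins 0.21 (0.47). For ciliated genes it was 0.04 (−0.30 before) and for smooth muscle genes 0.05 (−0.21), a change of sign in both. RNA integrity per array is not given in the sources used here, and its part was not tested.

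**Figure D5:**
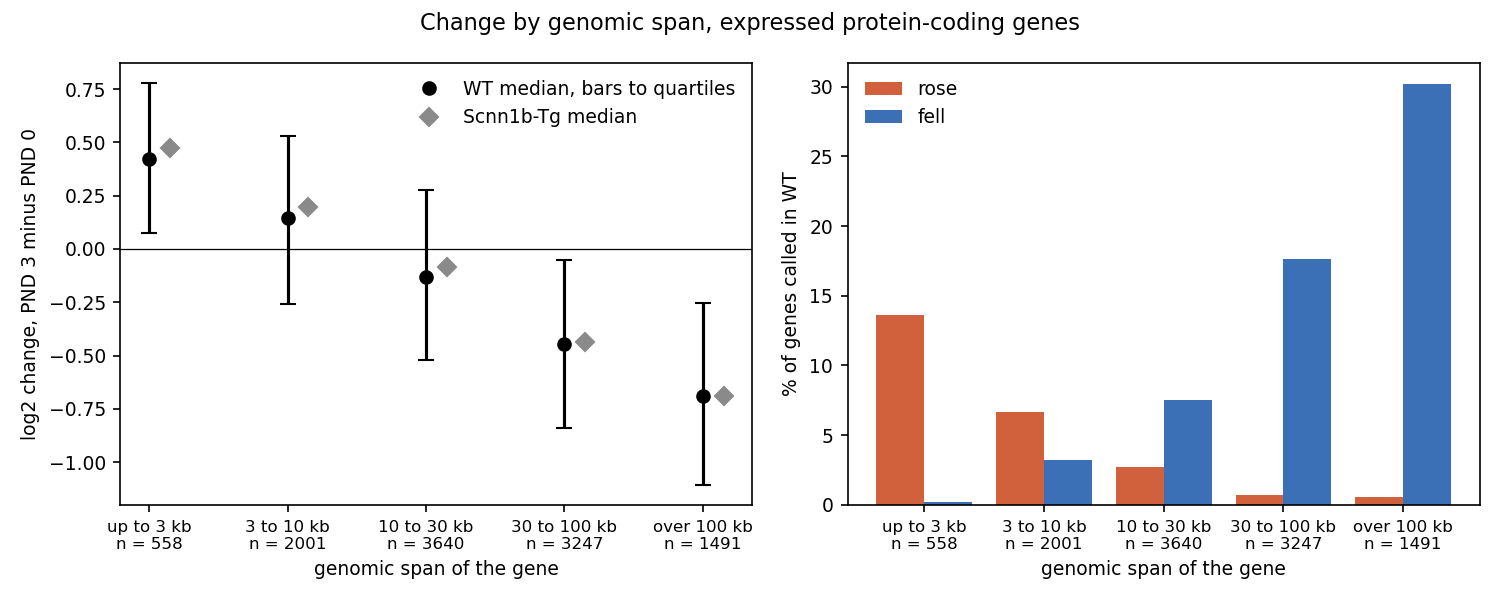
Left, median log2 change from PND 0 to PND 3 by class of genomic span (kb), with quartile bars for WT and diamonds for *Scnn1b*-Tg lungs, and right, the percentage of genes that rose or fell in WT lungs. The WT median runs from 0.42 in genes of up to 3 kb to −0.69 in genes of over 100 kb, and the share that fell from 0.179% to 30.2%.

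The largest falls of protein-coding genes took in regulators of several kinds. *Atxn1*, a transcriptional corepressor, had the largest, from 9.81, 9.28 and 9.32 to 6.10, 6.76 and 6.06 log2, with no overlap (change −3.16, SE 0.23, limma adjusted p = 3.18e-09). *Lpp*, of cell adhesion sites, fell by 2.72, and the remodeller *Chd7* by 2.60 log2. *Wdfy3*, of selective autophagy, fell by 2.499 log2. *Nfat5*, which answers osmotic stress, fell by 2.42, the coactivator *Zmiz1* by 2.40, *Leng8* by 2.39 and *Tnrc6a*, the silencing partner of Argonaute, by 2.38 log2. Among other gene types the nuclear long RNA *Firre* fell by 3.02 log2. *Gm7265* fell by 2.39 log2.

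Small non-coding RNA genes held the largest rises on the arrays. Of 54 small nucleolar RNA genes, which guide the modification of ribosomal RNA, 20 rose and 2 fell (*Snord14e* and *Snord37*). *Snord118*, the U8 RNA of ribosomal RNA processing, was at 3.28, 3.21 and 3.33 log2 at PND 0 and at 6.19, 6.68 and 7.55 at PND 3, and *Snora69* at 3.86, 4.25 and 4.19 and 7.21, 7.92 and 8.42. Both had all PND 3 arrays above PND 0. *Snora16a* and *Snord22* rose by 4.37 and 3.76 log2. Of 15 genes of vault, Y, 7SK, RNase P and spliceosomal RNAs 10 rose, with a median of 2.41 log2. The vault RNA gene *Vaultrc5* had the largest rise, from 3.71, 3.71 and 3.71 to 8.07, 8.59 and 9.13 log2. *Rpph1*, the RNA of RNase P, rose by 1.79, *Rnu12*, of the minor spliceosome, by 2.41, *Rnu3a*, the U3 RNA of ribosomal RNA processing, by 4.23 and *n-R5s136*, a 5S ribosomal RNA gene, by 2.72 log2. Such RNAs are short, often lie in introns of host genes and are recovered unevenly by RNA purification, whose part was not tested.

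MicroRNA genes gave 14 calls. Of 300 genes with a microRNA name 2 rose (*Mir6516* and *Mir187*, 0.667%) and 12 fell (4%), with a median change of 0.09 log2. Over all genes the shares were 1.88% and 7.02%. Only 54 of the 300 were above 5 log2 at either age, against 11,198 of all 19,938 genes, so these shares compare sets of unlike level. Of the falls 10 are of the miRNA type and the other 2, *Mir17hg* and *Mir99ahg*, are long host genes. Without WT PND 0 replicate 1, 4 were higher and 9 lower, and without WT PND 3 replicate 2, 5 were higher and 10 lower. A microRNA pairs with its targets through its seed, bases 2 to 8, and 9 of the 14 called genes have an entry in the RefSeq table of mature sequences (GRCm38.p6). Both mature arms of 6 of them are printed 5′ to 3′ with the seed in capitals, as 3 of the falls with the lowest p, the precursor of the growth-restraining miR-15a, the largest fall of the imprinted *Meg3* region and the 1 rise with an entry. The probe sets read the gene or its precursor and cannot tell which arm was present, and all 18 seeds of the 9 genes differ. *Mir23a* and *Mir27a* lie together (chr8:84208527-84208548 and chr8:84208563-84208583 for miR-23a-5p and miR-23a-3p, chr8:84208685-84208706 and chr8:84208727-84208747 for the arms of miR-27a, plus strand). *Mir181b-1* lies at chr1:137966650-137966673 and chr1:137966690-137966710 (plus strand), *Mir15a* at chr14:61632075-61632096 and chr14:61632038-61632059 (minus strand), *Mir382* at chr12:109733781-109733802 and chr12:109733819-109733840 (plus strand) and *Mir6516* at chr11:117077370-117077391 and chr11:117077412-117077433 (plus strand), 5p arm first.
miR-23a-5p: gGGGUUCCuggggaugggauuu
miR-23a-3p: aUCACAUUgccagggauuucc
miR-27a-5p: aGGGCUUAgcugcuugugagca
miR-27a-3p: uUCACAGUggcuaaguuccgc
miR-181b-5p: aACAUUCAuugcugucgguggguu
miR-181b-1-3p: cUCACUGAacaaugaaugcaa
miR-15a-5p: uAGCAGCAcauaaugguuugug
miR-15a-3p: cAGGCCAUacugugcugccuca
miR-382-5p: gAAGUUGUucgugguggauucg
miR-382-3p: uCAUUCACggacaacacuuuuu
miR-6516-5p: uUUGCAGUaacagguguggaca
miR-6516-3p: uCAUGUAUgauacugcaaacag

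*Mir23a* was at 4.70, 4.35 and 4.72 log2 at PND 0 and at 3.39, 3.47 and 3.35 at PND 3, a change of −1.19 log2 (limma adjusted p = 1.34e-08), and its neighbour *Mir27a*, whose 3p seed differs from that of miR-23a-3p, went from 6.29, 6.27 and 5.80 to 4.32, 4.78 and 4.61. *Mir181b-1* fell by 1.36 and *Mir15a* fell by 1.61 log2, and for these 4 genes the ages did not overlap. *Mir145a* and *Mir143*, a cluster of smooth muscle, fell by 2.76 and 1.34 log2. The means of *Mir23a*, *Mir181b-1* and *Mir143* were 4.59, 4.96 and 4.71 log2 at PND 0 and lower at PND 3, under the 5 log2 limit of dim rows at both ages. *Mir382* was at 6.83, 4.93 and 4.05 log2 at PND 0 and at 3.28, 3.65 and 3.49 at PND 3, with PND 0 replicate 1 highest, as it was for *Mir300*, *Mir329* and *Mir679* of the same chromosome 12 region. *Mir300* read 5.99, 3.58 and 3.39 log2 at PND 0 and 3.20, 3.35 and 3.13 at PND 3. *Mir6516* went from 5.50, 6.03 and 5.75 to 7.48, 7.58 and 8.43 log2, all PND 3 arrays above PND 0.

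In the epithelium, *Sftpc* and *Sftpb* moved in opposite directions by less than 2-fold, while several other alveolar type II genes fell. *Sftpc* was at 13.41, 13.61 and 13.39 log2 at PND 0 and at 13.92, 14.01 and 13.99 at PND 3 (change 0.50), and *Sftpb* at 10.95, 10.99 and 11.10 and 10.67, 10.72 and 10.31 (change −0.44). Neither reached a 2-fold change, while 7 of the 26 alveolar type II genes fell and none rose. *Abca3*, the lipid pump of the lamellar bodies that store surfactant, went from 9.34, 9.46 and 9.40 to 7.77, 8.29 and 7.48 log2, with no overlap, a change of −1.55 log2 (SE 0.17, limma adjusted p = 3.24e-07). The phosphate carrier *Slc34a2* fell by 1.35, the surface mucin *Muc1* fell by 1.53 and *Nkx2-1* by 1.04 log2. Of 25 genes of fatty acid and sterol synthesis 8 fell (5 without WT PND 3 replicate 3) and none rose, and fatty acid synthase (*Fasn*) fell by 1.44, the carboxylase *Acaca* by 1.72, the desaturase *Scd2* by 1.70 and the sterol regulator *Srebf2* by 1.02 log2. In type I cells 6 of 21 genes fell and 1 rose (*Igfbp2*), and *Col4a3* and *Col4a4*, chains of their basement membrane, fell by 1.65 and 1.56 log2.

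Ion transport genes fell. The epithelial sodium channel (*Scnn1a*, *Scnn1b*, *Scnn1g*) draws sodium and with it water out of the airspace, and of 28 transport genes 11 fell and none rose. *Scnn1a*, the alpha subunit, was at 9.71, 9.91 and 10.26 log2 at PND 0 and at 7.78, 8.65 and 7.54 at PND 3, with no overlap, a change of −1.97 log2 (SE 0.22, limma adjusted p = 4.97e-07). The gamma subunit *Scnn1g* fell by 1.09, the ubiquitin ligase *Nedd4l*, which removes the channel, by 1.73, the kinase *Wnk1* by 1.78 and the chloride importer *Slc12a2* by 1.32 log2. *Atp6v0a4*, a proton pump subunit of acid-secreting epithelia, fell by 2.41 log2. Over the same interval *Scnn1a* changed by −0.96 log2 in *Scnn1b*-Tg lungs, and the difference did not pass (limma adjusted p = 0.998).

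Airway cell lists showed few calls. Of 18 club cell genes 2 rose (11.1%), the secretoglobin *Scgb3a1* by 1.31 and the transferase *Gsto1* by 1.08 log2. In that list 1 fell (5.56%), the monooxygenase *Fmo2*, by 2.02 log2. Of 18 goblet cell genes 2 rose: the trefoil factor *Tff2*, at 3.82, 3.95 and 3.77 log2 at PND 0 and 5.30, 5.43 and 5.62 at PND 3, and the secreted defence protein *Bpifb1*, by 1.75 log2. Of 24 ciliated cell genes 2 fell (8.33%), *Dnah12*, a dynein chain, by 1.25 and *Cfap44* by 1.14 log2. Over all genes above 5 log2, 3.34% rose and 12.5% fell. No gene was called of 20 in the basal and squamous list and 12 in the neuroendocrine list, even though PND 3 replicate 3 carried squamous keratins. Only 7 of the 20 and 2 of the 12 were above 5 log2 at either age, so most members were dim.

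Endothelial genes fell in part while the tight junction marker *Cldn5* did not. Of 29 microvascular genes 7 fell and none rose, with a median of −0.73 log2. *Kdr*, the main receptor of VEGF, was at 9.43, 9.08 and 9.43 log2 at PND 0 and at 7.82, 7.71 and 7.70 at PND 3, a change of −1.57 log2 (SE 0.18, limma adjusted p = 6.93e-07) with no overlap. The decoy receptor *Flt1* fell by 1.59, the junction cadherin *Cdh5* by 1.48 and nitric oxide synthase *Nos3* by 1.27 log2, while *Cldn5* changed by 0.25. Of 16 vasoactive genes 6 fell, among them angiotensin converting enzyme (*Ace*) by 1.18, endothelin converting enzyme (*Ece1*) by 1.44 and the natriuretic peptide receptor *Npr3* by 1.58 log2. After a further quantile normalisation 2 of this list were lower, after centring on array medians 5, and on the receptor-centred scale 8. *Hpgd*, which breaks down prostaglandins, rose by 1.14 log2, a call lost without WT PND 0 replicate 1 and without WT PND 3 replicate 3. In lymphatic endothelium *Flt4* and *Lyve1* fell by 1.08 and 1.25 log2.

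Matrix genes of the wall were lower at PND 3. Of 26 collagen chains 11 fell, none rose and the median was −0.95 log2. *Col4a1*, of basement membranes, went from 9.40, 8.95 and 8.84 to 6.98, 7.34 and 7.07 log2 and *Col6a1*, of microfibrils, from 9.70, 9.56 and 9.61 to 7.92, 8.20 and 7.77. In both the ages did not overlap. Of 19 elastic fibre genes 7 fell and 1 rose. Elastin (*Eln*) was at 10.70, 10.90 and 11.08 log2 at PND 0 and at 9.17, 9.72 and 9.27 at PND 3, a change of −1.51 log2 (SE 0.23, limma adjusted p = 1.47e-05). *Fbn2*, a fetal fibrillin, fell by 1.49, and *Ltbp3*, which stores latent TGF-beta, fell by 1.66 log2, whereas *Mfap5*, a microfibril protein, rose by 1.46 log2. Of 30 other matrix proteins 10 fell and 1 rose, the proteoglycan *Lum* by 1.14 log2, a call lost without WT PND 3 replicate 3. Of those lower, *Adamtsl2* fell by 2.497, fibronectin (*Fn1*) by 1.76, nidogen (*Nid1*) by 1.77 and perlecan (*Hspg2*) by 1.46 log2. The protease inhibitor *Timp3* fell by 2.09 log2 and the membrane protease *Mmp14* by 1.01. The inhibitor *Timp1* rose by 1.23 log2, a call lost without WT PND 3 replicate 2. Of 20 metalloproteinases and inhibitors 4 fell, against 7 without WT PND 3 replicate 2 and 2 without replicate 3.

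Among mesenchymal cells the growth factor receptors of fibroblasts fell while smooth muscle actin did not. *Pdgfra*, of the fibroblasts that later form septa, was at 8.92, 8.34 and 8.48 log2 at PND 0 and at 7.18, 6.92 and 7.33 at PND 3, and *Pdgfrb*, of pericytes, fell by 1.57 log2. *Acta2* went from 10.72, 10.95 and 10.67 to 11.49, 11.21 and 11.50 log2, a change of 0.62 that was under 2-fold. The smooth muscle list had 5 of 25 members lower and 1 higher, the light chain *Myl9* with 1.02 log2, and its median (−0.10) changed sign with scaling, to 0.07 after centring on array medians. Of 21 fibroblast genes 7 fell, with *Inmt*, a methyltransferase, lower by 2.37 and *Limch1* by 1.38 log2.

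Hippo, Notch and lung transcription factor genes fell. Of 29 Hippo and Notch genes 12 fell and none rose. *Tead1*, the DNA-binding partner of the Hippo effectors, was at 8.78, 8.997 and 9.09 log2 at PND 0 and at 5.81, 6.04 and 5.80 at PND 3, and the receptors *Notch2*, *Notch3* and *Notch4* and the ligand *Jag2* fell by 1.73, 1.58, 1.16 and 1.77 log2. Of 34 lung transcription factors 12 fell and none rose, with a median of −0.85 log2. *Foxp1* and *Foxp2*, repressors in the epithelium, fell by 1.62 and 1.51, *Klf5* by 1.47 and *Tbx3*, of mesenchyme, by 1.55 log2. Of 42 hedgehog, FGF, WNT and BMP genes 5 fell (11.9%), near the 12.5% of all genes above 5 log2, namely the hedgehog antagonist *Hhip* by 1.55, *Axin2*, a target of WNT, by 1.34, *Fgfr2*, the epithelial FGF receptor, by 1.09, the hedgehog receptor *Ptch1* by 1.21 and the FGF antagonist *Spry2* by 1.06 log2. Without WT PND 3 replicate 2, 8 of them were lower and 1 was higher. No retinoid gene of 19 was called.

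Immune genes rose in small numbers, and several rested on 1 array. Antigen presentation by MHC class II had 3 of 19 genes higher and none lower. *H2-Ab1*, a class II chain, was at 6.74, 6.16 and 6.49 log2 at PND 0 and at 8.19, 7.96 and 8.15 at PND 3, a rise of 1.64 log2 (SE 0.20, limma adjusted p = 1.03e-06), and *H2-Aa* and *H2-Eb1* rose by 1.44 and 1.14. Of 20 T and NK cell genes 2 rose (10%), the T cell receptor chain *Cd3g* by 1.63 and the protease *Gzma* by 1.22 log2, and 1 fell (5%), *Rora*. Of 17 B cell genes *Ms4a1* rose by 1.18 log2, a call lost without WT PND 0 replicate 1, and the B lineage factor *Ebf1* fell by 1.31. Each is 5.88% of that list, where 3.34% of all genes above 5 log2 rose and 12.5% fell. Of 30 cytokines and chemokines 6 rose and none fell. *Il18* was at 5.29, 5.41 and 5.44 log2 at PND 0 and at 6.77, 6.44 and 6.52 at PND 3, with no overlap, and *Csf2*, the growth factor of alveolar macrophages, rose by 1.12 and the chemokine *Ccl9* by 1.13 log2. *Il1a*, an alarm cytokine, was at 3.56, 4.48 and 4.23 log2 at PND 0 and at 5.08, 7.89 and 4.57 at PND 3, where replicate 2 stood highest. In the airway defence list *Bpifb1* and the complement factor *Cfb* rose, and *Cfb* read 6.94, 8.78 and 6.20 log2 at PND 3 against 5.86, 5.83 and 5.43 at PND 0, with the same array highest. Without that array 1 gene of this list was called higher, and without WT PND 3 replicate 3 there were 6. *Cxcl10*, which was not called, showed the same array at 8.80 log2 against 4.296 and 4.49. Without WT PND 3 replicate 2 only 1 cytokine was called, without WT PND 0 replicate 1 there were 2, and without WT PND 3 replicate 3 there were 10.

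Macrophage and granulocyte genes were mixed. Of 28 macrophage genes 2 rose (7.14%), the protease *Ctsk* by 1.22 and the glycoprotein *Gpnmb* by 1.198 log2, and *Mertk* fell (3.57%). Over all genes above 5 log2, 3.34% rose and 12.5% fell. *Atp6v0d2*, a proton pump subunit of macrophages and osteoclasts, went from 4.55, 6.95 and 7.43 to 8.77, 8.75 and 8.41 log2, with PND 0 replicate 1 far below the other 2. *Plac8*, of myeloid and epithelial cells, rose by 2.12 log2. *S100a8*, an abundant neutrophil protein, was at 8.76, 7.39 and 7.85 log2 at PND 0 and at 9.40, 10.21 and 8.19 at PND 3, and the ages overlapped though it was called (1.27 log2, limma adjusted p = 0.0324). The summed neutrophil markers were 10.6, 9.19 and 9.85 log2 at PND 0 and 10.6, 11.4 and 9.48 at PND 3, highest in replicate 2. Without that array 5 of 22 neutrophil genes fell and none rose, and without WT PND 3 replicate 3 the counts were 0 and 6. Of 20 genes of mast cells, basophils and eosinophils 18 had a positive change, none of them called, and the median was 0.33 log2. The olfactory and vomeronasal receptors, taken as background, were positive in 1127 of 1178 genes, with a median of 0.25 log2. Only 9 of the 20 genes were above 5 log2 at either age, and on the receptor-centred scale the list median was 0.08 log2. The 2 genes of this list with a negative change fell: the receptor *Kit* by 1.25 and the factor *Gata2* by 1.62 log2, genes that other lung cells also carry. Of 22 interferon-stimulated genes 1 fell (4.55%), the signal transducer *Stat2*, by 1.13 log2, a call lost without WT PND 0 replicate 1.

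Levels at PND 10 are given for genes already named, as a description only, since both intervals share the PND 3 arrays. From PND 3 to PND 10, 229 rows were higher (1.05%) and 52 lower (0.239%) in WT lungs. Matrix and wall genes were among the rises: *Eln* averaged 10.74 log2 at PND 10, 1.35 above PND 3, *Col4a1* 8.21 (1.07 above), *Hspg2* 7.71 (1.72), *Pdgfra* 8.40 (1.26) and *Fn1* 10.84 (1.34), all called in limma. *H2-Ab1* rose further, by 1.46 log2. *Snord118* and *Snora69* fell by 3.00 and 3.35 log2, and *Csf2* by 1.27. *H4c6* was not called over these days, at 9.96 log2 on average at PND 10, and averaged 7.65 at PND 42.

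The changes of *Scnn1b*-Tg lungs over the same 3 days did not differ detectably from those of WT lungs. There 493 rows were higher (2.26%) and 1743 lower (8%) at PND 3. Of the 375 genes that rose in WT lungs 374 had a positive change in *Scnn1b*-Tg lungs and 248 (66.1%) were called higher, with medians of 1.23 log2 in WT and 1.15 in *Scnn1b*-Tg. Of the 1400 that fell 1399 had a negative change and 1033 (73.8%) were called lower, with medians of −1.27 and −1.23. Since the genes were chosen on the WT arrays, a smaller value in *Scnn1b*-Tg is given as a description. In the test of the difference itself no row was called in limma (0%; 8 with array weights), 1034 rows had an unadjusted p under 0.05, and the lowest adjusted p was 0.147, for the endothelial microRNA gene *Mir126a*. *Mir126a* changed by −0.85 log2 in WT and −1.77 in *Scnn1b*-Tg lungs, a difference of −0.91 (SE 0.15). Among the 10 genes with the lowest p were also the ciliary gene *Cfap52*, which changed by 0.11 in WT and 1.07 in *Scnn1b*-Tg lungs, and the carboxylesterase *Ces1d*, with −0.94 and −0.02 log2. Between the genotypes 3 of the 21,789 rows were called at PND 0 and 4 at PND 3.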

How the data were processed

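Whole left lobes were measured on 24 Affymetrix Mouse Gene 1.0 ST arrays (8 groups of 3), of which 6 are described here. Before deposit, the authors ran RMA (quantile normalisation, median polish) on the probe signals, which gave the deposited log2 values, in Partek 6.5 per the labels. Groups came from sample titles. Depth is not defined for arrays, so the number of arrays limits precision. Labels do not say that pools were separate litters, and p-values measure the spread between pools.

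R 4.3.3 with limma 3.58.1 fitted 8 group means to all 24 arrays (16 residual degrees of freedom, eBayes), with Benjamini-Hochberg adjustment over 21,789 rows. The methods name an analysis of variance with linear contrasts. The brightest probe set over the 24 arrays stands for a gene, and 5 log2 was taken as the limit of dim rows. On simulated data for WT PND 3 against WT PND 0 (21,789 genes), 24 of 50 genes changed by 1 log2 were called and 50 of 50 at 1.5, 2 and 3, with 3 unchanged genes called. Python 3.11.15, pandas 2.3.3, scipy 1.17.1 and matplotlib 3.10.9 served for lists and plots.

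Members and gene lists were chosen with earlier results of these data known. The rule for named genes took the 15 largest rises and falls among called protein-coding genes without overlap, the 5 largest among other types, the 6 lowest p of each list, cell type markers, and the 10 lowest p of the genotype difference. Other genes that complete a count of 5 or fewer, such as *Igfbp2*, *Myl9* and *Ptch1*, were named after their values were seen. The lists cover hormone and stress answers, growth, cell division, nuclear and small RNA, energy, translation, lung cell types, matrix, blood and immune cells and signals. Lists of cartilage, cardiac and skeletal muscle, brown fat with liver and thymus, erythroid cells and megakaryocytes are shown in the plot of lists. The receptor list is not plotted. No array was left out of the fit.

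Alternatives were fits of the 6 arrays alone, without moderation, with an intensity trend and robust prior, array weights or a replicate block, other scalings, row filters and fold limits, and each array left out. Columns of counts per list without 3 arrays were added after seeing the data. Same-numbered arrays of the 2 ages deviated with correlations of −0.04, −0.04 and 0.07, so the numbers do not pair them.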

Additional observations from a re-analysis of the deposited data

How the results depend on the processing

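Counts of rows called moved most with scaling and with the fold limit. Rows higher at PND 3 numbered 792 after a further quantile normalisation, 790 after centring on array medians, 195 after centring on receptor rows, 806 over all rows of the table, 4736 with no fold limit and 1663 at 1.5-fold. Rows lower numbered 963 after quantile normalisation, 2837 after centring on receptor rows, 2740 over all rows, 5417 with no fold limit and 3762 at 1.5-fold. These scalings moved the median of all tested rows to 0.02, 0.24 and −0.19 log2. Leaving out each array in turn gave 388 to 536 rows higher and 1550 to 1925 lower. The difference between the genotypes gave 8 calls with array weights and 0 to 2 without an array, 1 without WT PND 3 replicate 2 and 2 without *Scnn1b*-Tg PND 0 replicate 1. With the replicate number as a block, 430 rows were higher, 1697 lower and 0 differed between genotypes. Fits of the compared arrays alone, without moderation, with a trend and robust prior, without dim rows and with 1 row per gene stayed within 1.5 times of the reported counts. Of the 221 named genes that were called, 31 lost the call after quantile normalisation, 24 after median centring, 25 after receptor centring and 17 at most without 1 array, and none reversed. The causes were not tested, and the arrays that stood apart from others of their age are named with their values above.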
